A study of Solanum lycopersicum with 21 samples.

Results

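The 10 genes described here carry jasmonate perception and its first transcriptional step: 8 JAZ repressors, the transcription factor MYC2 and the receptor subunit COI1. They were taken as the rows of the deposited table whose locus ID before the dot was on a list of 10 IDs, out of 35039 IDs in all. The assignment of IDs to JAZ, MYC2 and COI1 comes from that list, since the deposited table gives IDs alone and none of its IDs matched the RefSeq gene table used here. The JAZ genes are therefore named by ID. Of the 10 genes, 9 passed the filter on low counts and were tested: 7 JAZ genes, MYC2 (Solyc08g076930.1) and COI1 (Solyc05g052620.3). The remaining JAZ gene, Solyc06g068930.2, had 0 counts in all 21 libraries, where 3 counts would correspond to between 0.0847 and 0.156 CPM (counts per 1000000 counts of the library). Over the whole table, 9577 of the 35039 IDs had 0 counts in all libraries.

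Jasmonate acts by removing a brake. The active hormone, a conjugate of jasmonic acid with isoleucine, brings the F-box protein COI1 together with a JAZ protein, which is then ubiquitinated and degraded. JAZ proteins otherwise bind MYC2, a bHLH transcription factor, and hold its targets silent. Many JAZ genes are themselves MYC2 targets, so JAZ transcripts rise soon after jasmonate signalling starts and are widely read as a marker of it. In tomato leaves the pathway is best known for defence against wounding and insects. Transcript levels say nothing of JAZ protein, which is controlled by degradation.

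RNA came from leaves of 3-week-old tomato (Solanum lycopersicum, cultivar M82), in 7 groups of 3 libraries. The strigolactone-depleted line 6936, a line with silenced CCD7, a gene of strigolactone synthesis, was sampled irrigated (CC_WW), irrigated again after 1 drought (recovery 1, CC_S1) and irrigated again after 2 droughts (recovery 2, CC_S2). Wild type was sampled under the same conditions (WT_WW, WT_S1 and WT_S2), and a further wild-type group (WTTR24) was irrigated and sprayed on the leaves with the synthetic strigolactone GR24 5DS at 5 µM, 24 h before sampling. Droughts were imposed by moving uprooted plants to nearly dry vermiculite, while the irrigated groups were sampled before any transfer, so uprooting cannot be told apart from drought. No group given a blank spray is among those analysed here, so GR24 cannot be told apart from spraying. The depletion was measured in roots and root exudates per the labels, the depleted genotype is a single line, and its silencing is not restricted to a tissue in the labels. The irrigated groups carry the time label 0, recovery 1 the label 31, recovery 2 the label 76 and the sprayed group the label 24. All lack a unit, so neither recovery nor the GR24 spray can be told apart from sampling time. Each replicate pooled at least 3 leaves, 1 per plant, from 5 plants; if those 5 plants are all that a condition had, its replicates shared plants and the p-values given here are too small.

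Library totals ranged from 19267602 to 35433511 counts. Levels are CPM scaled by TMM factors, which correct for differences in library composition. Differences were tested with edgeR's quasi-likelihood test on all 20373 IDs past the filter, and a gene is said to have changed, risen or fallen at a Benjamini-Hochberg adjusted p below 0.05 over all of them. One locus, Solyc01g090660, picked from earlier results of these data, was read in 9 of 9 libraries of the depleted line and had 0 counts over the 12 wild-type libraries; as it was picked on these libraries, this is a description and no check of the labels. On the first principal component (36.4% of the variance) depleted libraries ran from −90.9 to −11.1, with replicate 16 of recovery 1 at the upper end, and unsprayed wild type from 30.5 to 100.6. Of the sprayed libraries, replicate 8 lay at 43.8, replicate 11 at −2.93 and replicate 9 at −25.1. The leaf label was not checked against marker genes, because gene names for marker IDs were lacking. In these pooled leaves, fewer cells that use a gene and less RNA per cell cannot be told apart.

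Across 12 comparisons, 10 of 2 groups and 2 of the difference between genotypes in their response to recovery, 6 of 108 tests of these genes (5.56%) passed the threshold, against 11.7% of all tests over the table. The 6 fell on 3 genes: the JAZ genes Solyc01g005440.3 and Solyc03g118540.3, and COI1. MYC2 and the other 5 tested JAZ genes changed in none of the 12. Comparisons that use the same irrigated libraries are not independent of each other.

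**Figure D1:**
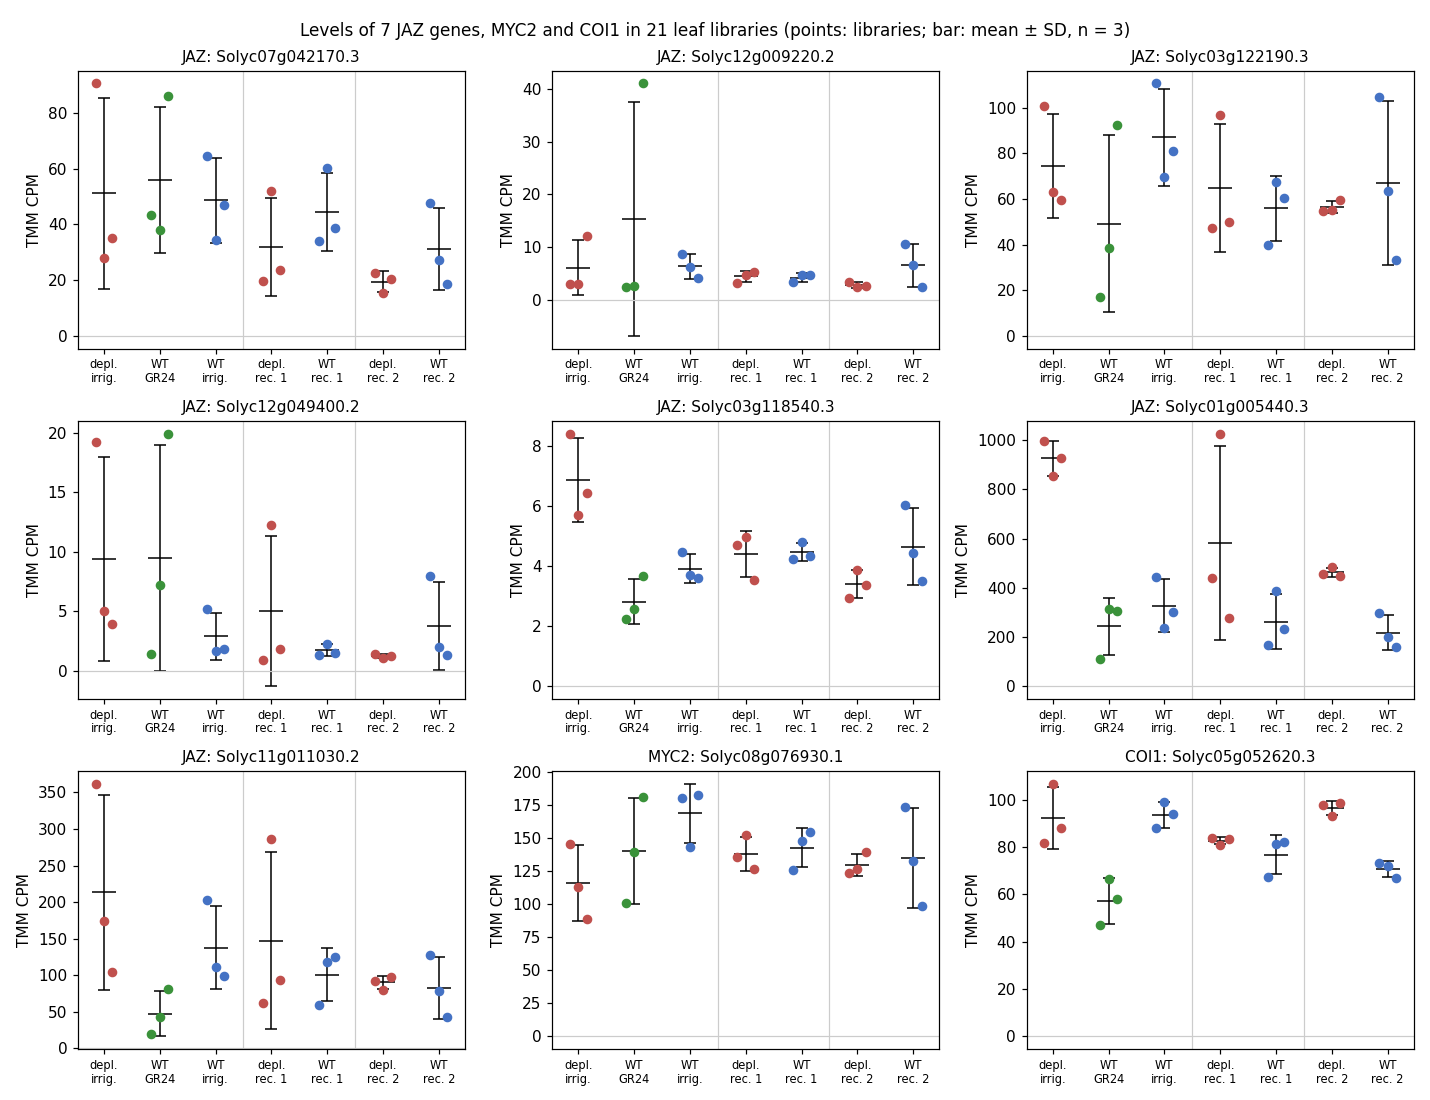
Level of each tested gene (TMM-scaled CPM, linear axis) in the 7 groups; red points are libraries of the depleted line, green GR24-sprayed and blue other wild type, and bars the mean ± SD of 3 libraries. Solyc01g005440.3 lies at 856 to 998 CPM in irrigated leaves of the depleted line and at 236 to 446 in irrigated wild type, while COI1 is lowest in the GR24-sprayed group, at 46.9 to 66.6 CPM.

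The clearest genotype difference among the repressors was that of Solyc01g005440.3. Under irrigation it stood at 998, 856 and 927 CPM in the depleted line (replicates 3, 6 and 7), against 446, 236 and 302 CPM in wild type (replicates 6, 7 and 14). The lowest depleted library was thus well above the highest wild-type library. The gene rose by 1.50 ± 0.45 on the log2 scale (SE, n = 3 each, edgeR adjusted p = 0.0163), a fold of 2.83. The call was lost without wild-type replicate 7 (log2 fold change 1.31, adjusted p = 0.0755) or replicate 14 (1.44, adjusted p = 0.0547).

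After 1 drought, Solyc01g005440.3 was at 439.6, 1027 and 276 CPM in the depleted line (replicates 16, 17 and 12) and at 167, 385 and 234 CPM in wild type (replicates 1, 13 and 4). Depleted replicate 17 was more than 2 times above the other depleted libraries, and the genotypes overlapped. The log2 fold change was 1.15 ± 0.45 (SE, adjusted p = 0.0770), and 0.45 without depleted replicate 17. After 2 droughts it was at 458, 484 and 449 CPM in the depleted line (replicates 13, 11 and 8) and at 296, 199 and 159 CPM in wild type (replicates 8, 11 and 9). The groups did not overlap, but the log2 fold change of 1.09 ± 0.44 missed the threshold (SE, adjusted p = 0.0781). It passed with DESeq2 at recovery 1 (adjusted p = 0.0343) and recovery 2 (adjusted p = 0.0481), and at recovery 1 without depleted replicate 12 (log2 fold change 1.48, adjusted p = 0.0422). With only the 2 compared groups in the edgeR fit it passed at recovery 2 (log2 fold change 1.06, adjusted p = 0.0133) but not at recovery 1. In order of mean level, the 3 groups of the depleted line came first. Neighbouring groups in the order overlapped except the third, depleted recovery 2, and irrigated wild type. These were apart only narrowly, with the nearest libraries at 448.7 and 445.9 CPM. Depleted recovery 1, ranked above both, had libraries at 439.6 and 276 CPM, within the range of irrigated wild type.

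Solyc03g118540.3, a JAZ gene of low level, was the other repressor that differed between irrigated genotypes. It stood at 8.41, 5.70 and 6.45 CPM in the depleted line (replicates 3, 6 and 7), against 4.48, 3.69 and 3.59 CPM in wild type (replicates 6, 7 and 14). The groups did not overlap, and the gene rose by 0.80 ± 0.24 on the log2 scale (SE, adjusted p = 0.0174). It lost the call without depleted replicate 3 (log2 fold change 0.63, adjusted p = 0.0780), wild-type replicate 7 (0.76, adjusted p = 0.0633) or wild-type replicate 14 (0.74, adjusted p = 0.0612). At recovery 1 the levels were 4.69, 4.98 and 3.54 CPM in the depleted line and 4.24, 4.80 and 4.33 CPM in wild type, a log2 fold change of −0.02 (95% interval −0.53 to 0.49). At recovery 2 they were 2.95, 3.87 and 3.37 CPM in the depleted line and 6.04, 4.42 and 3.49 CPM in wild type, a log2 fold change of −0.45 (95% interval −0.97 to 0.06). The genotypes overlapped at both recoveries.

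The other 5 JAZ genes were not called between the irrigated genotypes, and their intervals were wide. Under irrigation, Solyc12g049400.2 was at 19.2, 5.03 and 3.90 CPM in the depleted line and 5.21, 1.71 and 1.81 CPM in wild type, a log2 fold change of 1.68 with a 95% interval from −0.35 to 3.72. Solyc11g011030.2 was at 362, 174 and 104 CPM in the depleted line and 203, 112 and 98.5 CPM in wild type, a log2 fold change of 0.63 (95% interval −0.62 to 1.88). In both genes 1 depleted library, replicate 3, lay far above the other two. Solyc07g042170.3 averaged 51.2 ± 34.2 CPM in the depleted line and 48.6 ± 15.1 CPM in wild type (SD, n = 3 each). Solyc12g009220.2 averaged 6.12 ± 5.24 CPM in the depleted line and 6.37 ± 2.28 CPM in wild type, and Solyc03g122190.3 averaged 74.4 ± 22.7 CPM in the depleted line and 87.1 ± 21.2 CPM in wild type. All 5 overlapped between the irrigated genotypes, and the 95% interval of each reached past a 2-fold change in at least 1 direction. The share of all IDs that overlapped in this comparison was not counted.

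Set against the whole table, the irrigated comparison called 34.4% of all tested IDs (18.4% higher in the depleted line), and 2 of the 9 genes, 22.2%, were called. The median log2 fold change of the 7 JAZ genes was 0.63, with 5 positive and 2 negative, against 0.03 over all IDs, and it was 0.26 without depleted replicate 3. At recovery 1, 0 of the 9 genes and 19.6% of all IDs were called; 1 of the 9 and 34.0% of all IDs had an unadjusted p below 0.05, and DESeq2 called 1 of the 9 and 5202 IDs. At recovery 2, 1 of the 9 genes (COI1) and 26.6% of all IDs were called, 14.9% higher. The JAZ median at recovery 1 was 0.21, but single libraries decided it: of the depleted libraries, leaving out replicate 17 gave −0.20 (5 of 7 negative), replicate 16 gave 0.39 and replicate 12 gave 0.36. Of the wild-type libraries, leaving out replicate 1 gave 0.02 and replicate 13 gave 0.37. At recovery 2 the median was −0.45, and −0.22 without wild-type replicate 8. The share of called genes was thus no larger here than over the table in any of the 3 conditions.

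**Figure D2:**
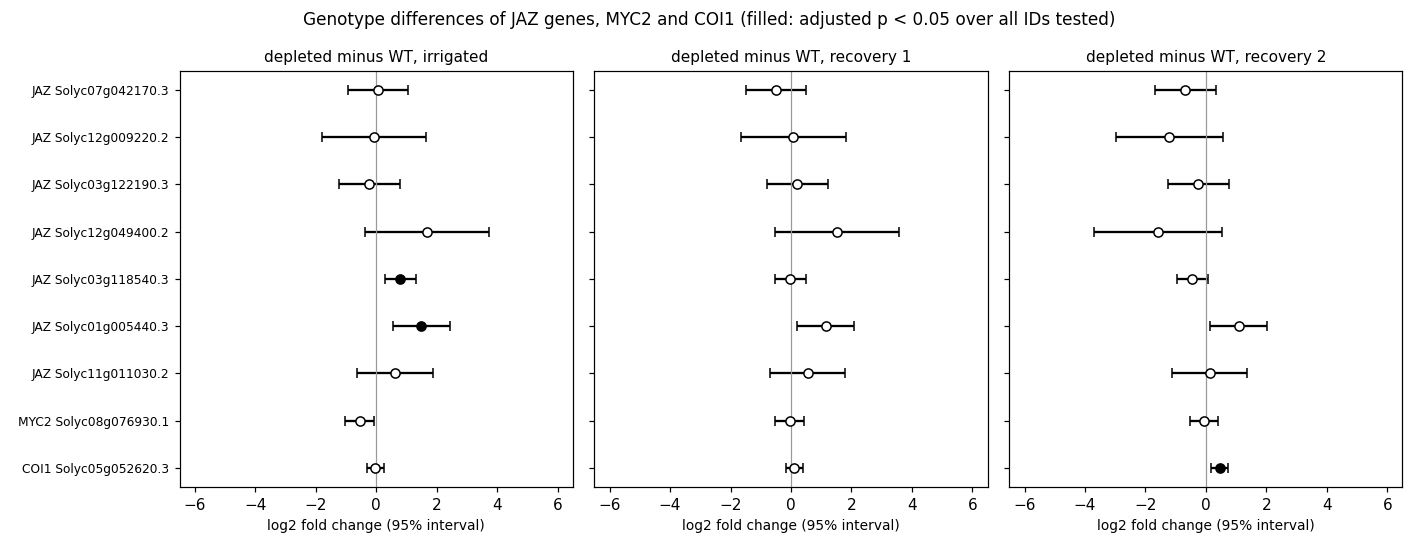
Log2 fold change of the depleted line over wild type for the 9 tested genes, in irrigated leaves and at recoveries 1 and 2, with 95% intervals from the edgeR fit; filled points have an adjusted p below 0.05. The filled points are Solyc01g005440.3 at 1.50 and Solyc03g118540.3 at 0.80 under irrigation, and COI1 at 0.45 at recovery 2.

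In the depleted line, JAZ transcripts were lower in mean at recovery 2 than under irrigation, and 1 of the 7 passed the test. All 7 tested JAZ genes had a negative log2 fold change between recovery 2 and irrigation, from −2.90 to −0.40 with a median of −1.11, against −0.02 over all IDs. The sign was negative for 7 of 7 under every scaling and with any single library left out. JAZ levels moved together by library, as described below, so here and in later comparisons the signs of the 7 genes are not separate observations. Only Solyc03g118540.3 passed the test, at 2.95, 3.87 and 3.37 CPM at recovery 2 against 8.41, 5.70 and 6.45 CPM under irrigation, with means of 3.40 ± 0.463 CPM and 6.85 ± 1.40 CPM (SD, n = 3 each). Its log2 fold change was −1.01 ± 0.25 (SE, adjusted p = 0.0157), and its value was −0.92 when recovery replicate 13 was left out (adjusted p = 0.0672). With only the 2 groups in the fit the adjusted p was 0.0589. The comparison called 10.4% of all IDs, 6.04% lower, and 1 of the 9 genes.

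Further JAZ genes showed large differences on recovery 2 in the depleted line that missed the threshold. Solyc12g049400.2 stood at 1.39, 1.11 and 1.27 CPM at recovery 2 (replicates 13, 11 and 8), against 19.2, 5.03 and 3.90 CPM under irrigation, a log2 fold change of −2.90 ± 1.03 (SE, adjusted p = 0.0824). Solyc07g042170.3 was at 22.6, 15.5 and 20.3 CPM at recovery 2 and 90.5, 27.8 and 35.2 CPM under irrigation, a log2 fold change of −1.39 ± 0.48 (SE, adjusted p = 0.0731). Solyc01g005440.3, at −1.0 ± 0.44 (SE, adjusted p = 0.159), and Solyc11g011030.2, at −1.24 ± 0.60 (SE, adjusted p = 0.196), did not overlap between the groups either. Of the 7 JAZ genes 6 did not overlap, all lower at recovery 2, against 30.1% of all tested IDs in either direction. Solyc12g009220.2 overlapped. Solyc03g122190.3 counted among the 6 only narrowly, at 59.475 CPM in recovery 2 replicate 8 and 59.484 CPM in irrigated replicate 7. DESeq2 called Solyc12g049400.2 (adjusted p = 0.0126) and Solyc07g042170.3 (adjusted p = 0.0270). With only the 2 groups in the fit, edgeR called Solyc01g005440.3 (log2 fold change −0.99, adjusted p = 0.0260) and Solyc12g049400.2 (−2.87, adjusted p = 0.0449). Irrigated replicate 3 held the highest level of 6 of the 7 genes in its group, and without it the JAZ median was −0.84.

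At recovery 1 in the depleted line, no gene of the 9 was called, against 8.41% of all IDs; 1 of the 9 and 24.2% of all IDs had an unadjusted p below 0.05, and DESeq2 called 0 of the 9 and 2756 IDs. The 7 JAZ values were again all negative, from −0.92 to −0.20 with a median of −0.64, but this rested on irrigated replicate 3: without it 3 were negative and 4 positive, with a median of 0.01. The median was −1.23 without recovery 1 replicate 17 and −0.42 without replicate 16. Comparing recovery 2 with recovery 1 in this line, edgeR called 0 of the 9 genes and 0% of all IDs, with 0 of the 9 and 8.58% of all IDs at an unadjusted p below 0.05, and DESeq2 called 27 IDs of the table and 0 of the 6 genes that it gave an adjusted p; the other 3 had none. The JAZ median there was −0.65, and −0.13 without recovery 1 replicate 17.

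In wild type, no JAZ gene was called at either recovery. At recovery 1 edgeR called 0 of the 9 genes and 0% of all IDs, while 1 of the 9 (COI1) and 6.77% of all IDs had an unadjusted p below 0.05, and DESeq2 called 0 of the 9 genes and 36 IDs of the table. The JAZ median was −0.45, with 6 negative and 1 positive, but −0.04 without irrigated replicate 6 and −0.18 without recovery replicate 1. At recovery 2 the comparison called 4.89% of all IDs and 0 of the 9 genes by edgeR, with 1 (COI1) and 24.5% of all IDs at an unadjusted p below 0.05, and 1 (COI1 again) and 2342 IDs called by DESeq2. The JAZ values ran from −0.73 to 0.37, with 4 negative and 3 positive, a median of −0.38. The median was −0.85 without recovery replicate 8 (6 of 7 negative), −0.05 without recovery replicate 9 and −0.17 without irrigated replicate 6. Between the recoveries 0 of the 9 genes and 0.304% of all IDs were called, with 0 of the 9 and 14.2% of all IDs at an unadjusted p below 0.05, and 0 of the 9 and 621 IDs called by DESeq2.

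Whether recovery acted differently in the genotypes was tested as an interaction. At recovery 2 it passed for 1 of the 9 genes, Solyc03g118540.3, and for 6.95% of all IDs, 3.82% lower. The mean level of this gene was 3.40 CPM at recovery 2 against 6.85 CPM under irrigation in the depleted line, and 4.65 ± 1.29 against 3.92 ± 0.491 CPM in wild type (SD, n = 3). The interaction on the log2 scale was −1.26 ± 0.35 (SE, adjusted p = 0.0365). The call was fragile, as it was lost without 9 of the 12 libraries taken singly, at adjusted p of 0.0518 to 0.0977, and without the filter on low counts (adjusted p = 0.0503). The 9 were depleted irrigated replicates 3 and 7, depleted recovery 2 replicates 13, 11 and 8, wild-type recovery 2 replicates 8 and 11, and wild-type irrigated replicates 7 and 14. The 7 JAZ interactions at recovery 2 were all negative, with a median of −0.75 against 0.03 over all IDs. Of the 7, 5 were negative without depleted irrigated replicate 3 (median −0.36). With 1 of 4 other libraries left out, 6 of 7 were negative. These were wild-type recovery 2 replicate 8 (median −0.31) and depleted recovery 2 replicate 13 (−0.87). The others were wild-type irrigated replicates 7 (−0.55) and 14 (−0.72). At recovery 1 the interaction passed for 0 of the 9 genes and 1.51% of all IDs, with 1 of the 9 and 11.9% of all IDs at an unadjusted p below 0.05, and 0 of the 9 and 769 IDs called by DESeq2.

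MYC2, the activator that JAZ proteins restrain, kept within a narrow range, from 88.7 to 183 CPM over the 21 libraries. Under irrigation it was at 146, 113 and 88.7 CPM in the depleted line and 181, 143 and 183 CPM in wild type, with a small overlap. The log2 fold change was −0.54 (95% interval −1.01 to −0.07), and the adjusted p of 0.0679 missed the threshold. It passed without depleted replicate 3 (log2 fold change −0.74, adjusted p = 0.0261), with upper-quartile scaling (−0.61, adjusted p = 0.0428) and with DESeq2 (−0.57, adjusted p = 0.0390). This is the opposite sign to that of Solyc01g005440.3 and Solyc03g118540.3 in the same libraries.

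At recovery 1, MYC2 was at 136, 152 and 127 CPM in the depleted line and 126, 148 and 155 CPM in wild type. At recovery 2 it was at 123, 127 and 139.6 CPM in the depleted line and 174, 133 and 98.6 CPM in wild type. The intervals of these genotype differences, −0.52 to 0.42 and −0.53 to 0.41 on the log2 scale, exclude a 2-fold change in either direction. In order of mean level, irrigated wild type came first (169 ± 22.3 CPM) and the irrigated depleted line last (116 ± 28.7 CPM, SD, n = 3), and every pair of neighbouring groups in the order overlapped.

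COI1, the F-box subunit that binds the hormone together with JAZ, had the smallest SD relative to its mean of the 9 genes in 5 of 7 groups. In GR24-sprayed wild type it stood at 46.9, 66.6 and 58.1 CPM (replicates 8, 9 and 11), against 87.8, 99.0 and 93.9 CPM in irrigated wild type (replicates 6, 7 and 14). All sprayed libraries lay below all unsprayed ones. COI1 fell by 0.71 on the log2 scale (SE 0.13, 95% interval −0.99 to −0.43, edgeR adjusted p = 0.000805), and it was called under all 11 alternatives tried, with log2 fold changes from −0.83 to −0.59.

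COI1 also differed between the genotypes after 2 droughts. It was at 97.8, 93.3 and 98.5 CPM in the depleted line (replicates 13, 11 and 8) and at 73.2, 72.0 and 66.9 CPM in wild type (replicates 8, 11 and 9), with no overlap, a log2 fold change of 0.45 ± 0.13 (SE, adjusted p = 0.0179). Leaving out wild-type replicate 9 gave 0.41 (adjusted p = 0.0722). Under irrigation COI1 was at 81.7, 107 and 88.2 CPM in the depleted line and 87.8, 99.0 and 93.9 CPM in wild type, a log2 fold change of −0.02 (95% interval −0.30 to 0.25). At recovery 1 the log2 fold change was 0.11 (95% interval −0.17 to 0.38).

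Over the recoveries, mean COI1 levels ran differently in the genotypes, though the difference in response missed the threshold. In the depleted line, COI1 averaged 92.2 ± 12.97 CPM irrigated, 82.7 ± 1.57 CPM at recovery 1 and 96.5 ± 2.83 CPM at recovery 2. In wild type it averaged 93.5 ± 5.58 CPM irrigated, 76.7 ± 8.21 CPM at recovery 1 and 70.7 ± 3.33 CPM at recovery 2 (SD, n = 3). The log2 fold change at recovery 2 against irrigation was 0.07 ± 0.13 in the depleted line and −0.40 ± 0.13 in wild type (SE, adjusted p = 0.0756), where DESeq2 called it (adjusted p = 0.0296). The interaction, the test of this difference in response, was 0.47 ± 0.18 and missed the threshold (SE, adjusted p = 0.134). In the order of the 7 group means, neighbouring groups overlapped except at the bottom, where the sprayed group lay apart from wild type at recovery 2. That gap was narrow, with the nearest libraries at 66.6 CPM (sprayed replicate 9) and 66.9 CPM (wild-type recovery 2 replicate 9).

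No repressor was called by edgeR after the GR24 spray, and its 3 libraries disagreed. The comparison with irrigated wild type called 27.8% of all IDs (13.3% lower), and of the 9 genes COI1 alone. Solyc12g009220.2 was at 2.39, 2.76 and 41.0 CPM in the sprayed leaves (replicates 8, 9 and 11), against 8.68, 6.29 and 4.13 CPM in irrigated wild type, so 1 sprayed library was far above and the other two below all irrigated ones. Its log2 fold change of 1.28 had a 95% interval from −0.44 to 3.00, and it was −1.30 without sprayed replicate 11. Solyc12g049400.2 was likewise spread, at 1.39, 7.21 and 19.9 CPM in sprayed leaves against 5.21, 1.71 and 1.81 CPM in irrigated wild type, a log2 fold change of 1.71 (95% interval −0.32 to 3.74) and of 0.56 without sprayed replicate 11. Solyc07g042170.3 averaged 55.8 ± 26.2 CPM in sprayed leaves and 48.6 ± 15.1 CPM in irrigated wild type (SD, n = 3 each).

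Solyc11g011030.2 was lower in every sprayed library, at 19.1, 42.8 and 81.2 CPM in sprayed leaves against 203, 112 and 98.5 CPM in irrigated wild type, a log2 fold change of −1.53 ± 0.60 that missed the threshold in edgeR (SE, adjusted p = 0.0685) and passed with DESeq2 (−1.55, adjusted p = 0.0244). Solyc03g122190.3 was at 16.96, 38.7 and 92.2 CPM in sprayed leaves and 111, 69.4 and 81.1 CPM in irrigated wild type, a log2 fold change of −0.82 ± 0.48 (SE, adjusted p = 0.214). Without sprayed replicate 11 both were called lower, Solyc11g011030.2 at −2.15 (adjusted p = 0.0343) and Solyc03g122190.3 at −1.64 (adjusted p = 0.0190). Solyc01g005440.3 was at 111, 314 and 308 CPM in sprayed leaves and Solyc03g118540.3 at 2.23, 2.56 and 3.66 CPM, both overlapping irrigated wild type. MYC2 was at 101, 139.7 and 181 CPM in sprayed leaves, a log2 fold change of −0.27 (95% interval −0.73 to 0.20). Of the 7 JAZ genes 3 had a positive and 4 a negative value, with a median of −0.42. Single libraries moved this: the median was −0.08 without sprayed replicate 8, −0.71 without sprayed replicate 11 (6 of 7 negative) and −0.14 without irrigated replicate 6.

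**Figure D3:**
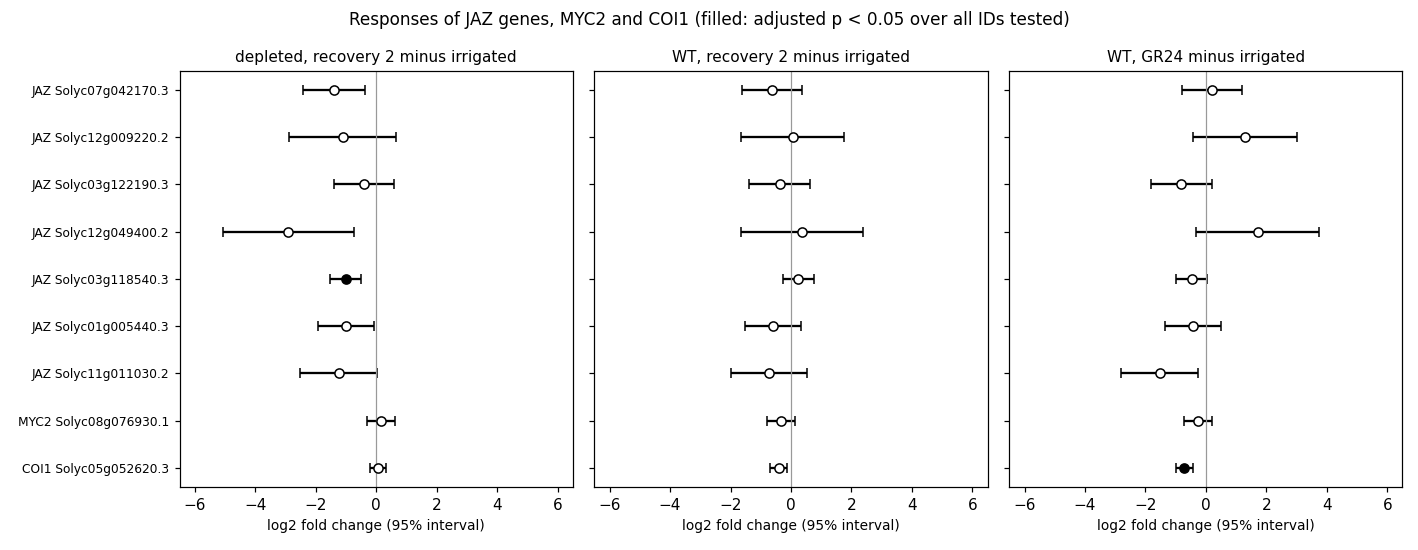
Log2 fold changes of the 9 tested genes, with 95% intervals from the edgeR fit, for recovery 2 over irrigation in the depleted line (left) and in wild type (middle), and for GR24 spray over irrigated wild type (right); filled points have an adjusted p below 0.05. The 7 JAZ genes all lie left of 0 in the depleted line, with Solyc03g118540.3 filled at −1.01, and COI1 is filled at −0.71 under GR24.

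JAZ transcripts differed widely between libraries of the same group. Over the 21 libraries the highest level exceeded the lowest 22.2 times for Solyc12g049400.2, 18.9 times for Solyc11g011030.2 and 17.1 times for Solyc12g009220.2, against 2.06 times for MYC2 and 2.28 times for COI1. Within most groups, 1 library held the highest level of nearly all JAZ genes. Wild-type irrigated replicate 6 and wild-type recovery 2 replicate 8 held the highest level of their group for 7 of the 7 JAZ genes. Depleted irrigated replicate 3, depleted recovery 1 replicate 17, sprayed replicate 11 and wild-type recovery 1 replicate 13 held it for 6 of 7. At the other end, wild-type recovery 1 replicate 1 and wild-type recovery 2 replicate 9 held the lowest level for 7 of 7, and sprayed replicate 8 for 6 of 7. The depleted line at recovery 2 was the exception, with the highest levels spread over its 3 libraries (3, 2 and 2 of 7) and an SD of 3.96% to 18.6% of the mean.

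MYC2 was highest of its group in 4 of the 6 libraries that were highest for 6 or 7 JAZ genes, and second in the other two. COI1 was highest in 1 of them, wild-type recovery 2 replicate 8, and lowest in 3. The labels name nothing that sets these libraries apart. Their part in each group difference was measured only by leaving out single libraries.

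**Figure D4:**
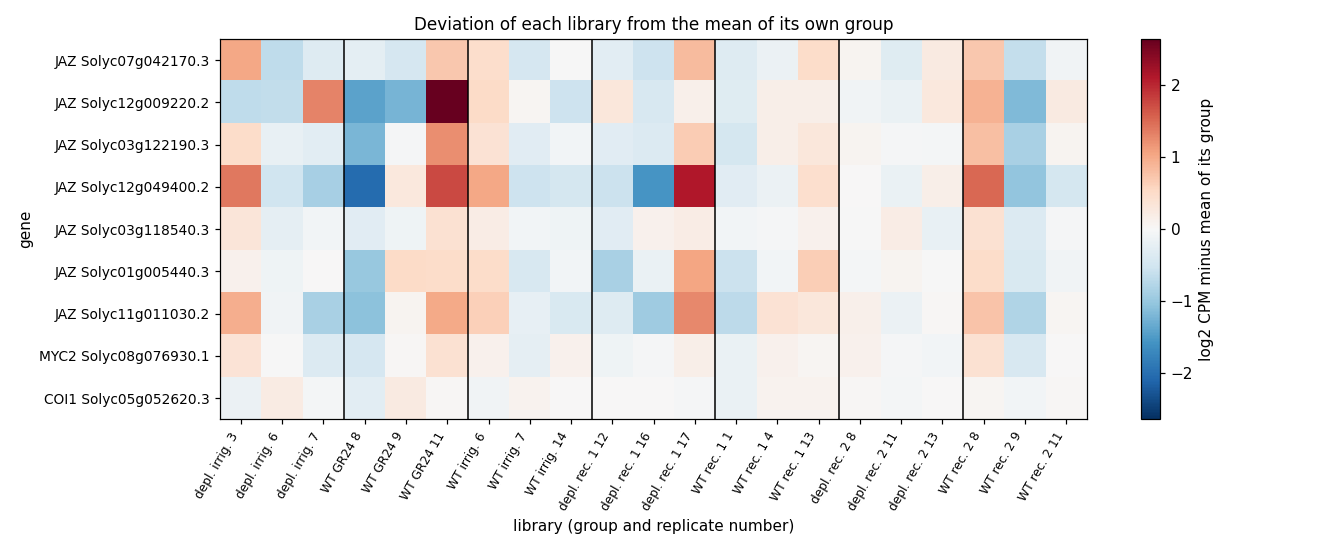
Log2 CPM of each tested gene in each library minus the mean of its own group (colour scale, red above and blue below), with groups parted by black lines. Within a group most JAZ genes share the sign of their deviation, as in wild-type recovery 2 replicate 8, highest for 7 of 7, and replicate 9, lowest for 7 of 7, while the COI1 row is pale throughout.

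For each gene, the ID outside the 10 with the most similar profile was found by Pearson r of log2 CPM over the 21 libraries, among 15386 IDs of sufficient level. The r values are a measure of likeness with no test, and the libraries share genotype and treatment. They ranged from 0.79 to 0.94. Solyc01g005440.3 was most like Solyc01g108020.3 (r = 0.94, and 0.89 within the 9 depleted and 0.88 within the 12 wild-type libraries). COI1 was most like Solyc02g078480.3 (r = 0.93, but 0.70 within the depleted line and 0.95 within wild type). MYC2 was most like Solyc08g068390.3 (r = 0.80), Solyc11g011030.2 most like Solyc06g083410.3 (r = 0.90) and Solyc12g049400.2 most like Solyc09g014480.2 (r = 0.88). For the other 4 JAZ genes the IDs were Solyc07g008570.3 for Solyc07g042170.3 (r = 0.83), Solyc02g089920.2 for Solyc12g009220.2 (r = 0.86), Solyc12g098910.2 for Solyc03g122190.3 (r = 0.88) and Solyc03g111170.3 for Solyc03g118540.3 (r = 0.79).

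A list of 23 further IDs was written down from general knowledge as jasmonate synthesis, signalling and response loci. No source used here pairs them with genes, so they are given as counts alone. Of the 23, 21 were in the table and 17 were tested. Between irrigated genotypes the depleted line had 1 higher and 4 lower, 29.4% of the 17 against 34.4% of all IDs. At recovery 1 the numbers were 1 and 0 (5.88% against 19.6%), and at recovery 2 they were 1 and 3 (23.5% against 26.6%). In the depleted line, 1 was higher and 1 lower at recovery 1 against irrigation (11.8% against 8.41% of all IDs), and 2 were higher and 1 lower at recovery 2 (17.6% against 10.4%). In wild type none was called at either recovery by edgeR, and after GR24 1 was higher (5.88% against 27.8%). The median log2 fold change of the 17 lay between −0.14 and 0.11 over the 12 comparisons.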

How the data were processed

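Leaf RNA of 21 libraries in 7 groups of 3 was analysed, with groups and replicate numbers taken from the sample titles. Libraries were prepared with a NEBNext Ultra kit, which does not mark strand, per the labels' protocols. HISAT2 and HTSeq are named in the submitters' processing notes; their versions and settings, and the build, are not stated in those sources. The deposited values are the authors' raw counts per gene ID. Another 6 columns could be tied to none of the samples and were left unused. Reads shared by near-identical or overlapping genes may be assigned in error, so counts of close JAZ paralogs are uncertain.

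Tests used edgeR 4.0.16 (R 4.3.3) on the counts: filterByExpr on the 7 groups (20373 of 35039 IDs kept), TMM factors, 1 mean per group over all 21 libraries (14 residual degrees of freedom), robust quasi-likelihood fit, Benjamini-Hochberg adjustment over all IDs tested. SE and 95% intervals come from the F statistic and its degrees of freedom. Log2 CPM used a prior count of 2. Replicates of a group differed by more than counting noise (chi-square per degree of freedom 28.9 to 334 over 21 pairs, genes with at least 20 counts), so each library counts as 1. P-values measure the spread between these libraries. Floors cover counting error only.

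The genes and lists were chosen with earlier results of these data known. All 10 genes are named, with 1 most similar ID for each, of mean log2 CPM of at least 1. Alternatives were DESeq2 1.42.0, other scalings, no filter, fits of the compared groups alone, leaving out each library and a replicate block. The code was tested on simulated data. No sequence is shown.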

Additional observations from a re-analysis of the deposited data

Results flagged for a closer look

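The response to recovery 2 of the JAZ gene Solyc03g118540.3 differed between the genotypes by the interaction test, with a log2 value of −1.26 (depleted line minus wild type, edgeR adjusted p = 0.0365). The level was 3.40 ± 0.463 CPM at recovery 2 and 6.85 ± 1.40 CPM under irrigation in the depleted line, against 4.65 ± 1.29 CPM at recovery 2 and 3.92 ± 0.491 CPM under irrigation in wild type (SD, n = 3 each). Over 17 alternatives the value ran from −1.43 to −1.02 and the adjusted p from 0.00711 (DESeq2) to 0.0977, and 7 of them kept the call.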

How the results depend on the processing

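No called value changed sign, and RLE scaling changed no call. Values that were not called did change sign: that of Solyc12g009220.2 after GR24 was −1.30 without sprayed replicate 11 in place of 1.28, and several JAZ medians turned or neared 0 without 1 library, as given beside them. With DESeq2 the number of the 9 genes called was 1 at recovery 1 and 2 at recovery 2 between genotypes, against 0 and 1 with edgeR (5202 and 6499 of all IDs with DESeq2, against 3999 and 5423). It was 3 for recovery 2 in the depleted line and 2 for GR24, against 1 each (3153 and 6597 of all IDs, against 2118 and 5657), and 1 for recovery 2 in wild type, against 0 (2342 of all IDs, against 997). In wild type between the recoveries DESeq2 called 621 IDs against 62, and in the interactions 769 against 307 and 2387 against 1415. Between irrigated genotypes DESeq2 called 3 of the 9 genes and 7897 of all IDs, and upper-quartile scaling 3 and 7044. The main fit called 2 and 7001. Fitting the compared groups alone gave 2 of the 9 genes for the genotypes at recovery 2, COI1 and Solyc01g005440.3, with 5790 of 18888 IDs called. For recovery 2 in the depleted line it gave 2, Solyc01g005440.3 and Solyc12g049400.2, with 991 of 18496 IDs called. There Solyc03g118540.3 itself lost its call (adjusted p = 0.0589). Without the filter on low counts the interaction at recovery 2 gave 0, with 1164 of 25462 IDs called. With single libraries left out, the counts ran from 0 to 2 between irrigated genotypes, 0 to 1 between genotypes at recovery 1 and at recovery 2, 0 to 1 for recovery 2 in the depleted line, 1 to 3 for GR24 and 0 to 1 for the interaction at recovery 2, and stayed at 0 in the other 6 comparisons. The irrigated count was 0 without wild-type replicate 7 (4822 of 20671 IDs called) or 14 (5545 of 20712). The GR24 count was 3 without sprayed replicate 11 (4275 of 20594 IDs called). Between genotypes the count was 1 at recovery 1 without depleted replicate 12 (2002 of 20643 IDs called). It was 0 at recovery 2 without wild-type replicate 9 (3468 of 20651). For recovery 2 in the depleted line it was 0 without recovery replicate 13 (1187 of 20736). The interaction at recovery 2 called 494 to 1947 IDs with single libraries left out.

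Same-numbered replicates were not shown to be paired: over 10 such pairs the correlation of deviations from the group means ran from −0.36 to 0.17. A replicate block was possible in 2 comparisons, between genotypes under irrigation and at recovery 2, whose groups shared 2 numbers each. It was fitted on all 21 libraries. At recovery 2 it thus also drew on the sprayed group, which carries numbers of both groups compared. The block left fewer residual degrees of freedom than the 14 of the main fit, which makes calls harder to reach. It gave 0 calls among the 9 genes in both comparisons. Over all IDs it called 3598 in place of 7001 and 2062 in place of 5423. With the block, the JAZ median between irrigated genotypes was −0.16, with 3 of 7 positive.

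With 3 libraries per group and a wide spread between them, most JAZ intervals reach past a 2-fold change, so a missing call does not show that a JAZ gene was unaffected. Solyc12g049400.2 had as few as 26 counts in a library and Solyc03g118540.3 as few as 53.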
